A study of Homo sapiens with 6 samples.

Results

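The genes described here are 8 osteochondrogenic genes in a kidney line: the transcription factor genes RUNX1, RUNX2, MSX1, MSX2 and DLX5, and the genes ALPL, TNFRSF11B and CRTAC1 for secreted or membrane proteins of bone and cartilage. They were selected on their symbols. The table listed 34157 genes, 7 of the 8 had a row in it, and MSX2 was not analysed here. The first 7 are genes that skeletal cells switch on under bone morphogenetic protein (BMP) signalling or use in bone, and CRTAC1 was added because its RNA was higher after treatment. CRTAC1 was thus chosen by its RPKM in these same libraries, its values are a description, and no test of it is given.

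RNA was sequenced in 6 libraries from HK-2, an established human line of kidney proximal tubule epithelium. The first group held 3 libraries of cells given GDF5 at 100 ng/ml for 48 hours, and the second held 3 libraries of control HK-2 cells, called wild type in the series' design text. The line had no further allele or agent in either group, as far as the labels go. Separate cultures are not stated for the replicates, so a p-value here reflects library-to-library spread that could be technical.

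GDF5 is a ligand of the BMP family that is known for forming joints and cartilage. Such ligands bind a pair of receptor kinases, which phosphorylate SMAD1, SMAD5 and SMAD9, and these enter the nucleus with SMAD4. In skeletal precursors the pathway acts through homeobox factors such as MSX2 and DLX5 and through RUNX2, the factor that osteoblasts require. In the adult kidney alkaline phosphatase is a known enzyme of the proximal tubule, while most other genes of the set are known mainly from bone, cartilage or teeth.

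Reads assigned to genes numbered 43883482 to 56039000 in GDF5 libraries and 45101766 to 56017359 in control libraries. Mitochondrial genes took 10.1% to 10.3% of reads in GDF5 libraries and 7.92% to 8.71% in control libraries. GDF5 replicate 1 stood apart in its group: the chi-square per gene, computed on reads divided by 2, was 4.15 and 4.71 when it was set against replicates 2 and 3, and 1.56 between those 2 libraries. Within control it was 2.59 to 4.07, and between the groups 16.5 to 24.3. The labels went with a BMP response, since the BMP target gene ID1 averaged 186.2 ± 44.5 RPKM in GDF5 libraries and 27.7 ± 1.47 RPKM in control libraries (SD, n = 3 each). SMAD7, an inhibitory SMAD that BMP signalling induces, averaged 8.73 ± 0.189 RPKM in GDF5 libraries and 3.66 ± 0.0895 RPKM in control libraries (SD, n = 3 each). RPKM are reads scaled by exon length and by the library's reads assigned to genes, so levels of different genes can be set side by side.

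Most listed markers of tubule epithelium were at higher levels than the listed osteoblast markers and most listed chondrocyte markers. Highest of the tubule list were KRT19 and EPCAM, which averaged 121 and 93.7 RPKM over the 6 libraries. SPP1 and SPARC, bone matrix genes outside these marker lists, averaged 420.6 and 249.7 RPKM, so the contrast holds for the listed markers only. Of 17 tubule epithelial markers 10 averaged at least 1 RPKM, and their summed level was 358.7 to 386.2 RPKM in GDF5 libraries and 414.8 to 443.4 RPKM in control libraries. Among them the late tubule markers LRP2, CUBN, HNF4A and AQP1 were at 0.0754 RPKM or less in each library. Other tubule markers of the list varied: MME averaged 3.92, GGT1 2.04, SLC34A1 0.292 and ANPEP 0.0167 RPKM over the 6 libraries. The osteoblast markers SP7, BGLAP, IBSP and DMP1 summed to 0.0233 to 0.0694 RPKM in GDF5 libraries and 0.0136 to 0.122 RPKM in control libraries. Of the chondrocyte markers, MATN3 averaged 4.50 RPKM in GDF5 libraries and 5.50 RPKM in control libraries, and ACAN, COL2A1 and COL10A1 were at 0.144 RPKM or less in each library. Endothelial markers summed to at most 0.0889 RPKM in any library and leukocyte markers to at most 0.430 RPKM. Of 6 fibroblast and mesenchymal markers 2 averaged at least 1 RPKM over the 6 libraries, LUM at 71.8 RPKM and DCN at 3.76 RPKM, and PDGFRA, PDGFRB, THY1 and COL3A1 were at 0.132 RPKM or less in each library.

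The GDF5 libraries all lay above the control libraries for RUNX2 and ALPL, as they did for 10.2% of the 21540 genes with a mean of at least 0.1 RPKM. They did so for CRTAC1 too, but that gene was chosen for its rise and is not set against this share. Stretches before the start sites of these 3 genes are shown because BMP-activated SMADs and RUNX factors bind known short motifs in the promoters of skeletal genes. The sequences are from RefSeq on GRCh38.p14, and capitals mark GGCGCC, the GC element of BMP SMADs, or the RUNX site TGTGGT, read on either strand (ACCACA on the other).
ALPL, chr1:21509173-21509371, plus strand: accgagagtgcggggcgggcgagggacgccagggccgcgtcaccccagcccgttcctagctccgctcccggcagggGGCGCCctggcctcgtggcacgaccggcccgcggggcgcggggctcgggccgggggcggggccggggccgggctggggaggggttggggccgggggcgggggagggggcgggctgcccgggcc
RUNX2 distal start, chr6:45328080-45328156, plus strand: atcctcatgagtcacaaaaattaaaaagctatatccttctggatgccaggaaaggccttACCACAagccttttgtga
RUNX2 second start, chr6:45422183-45422212, plus strand: caactgggagggGGCGCCagcgcacccagg
CRTAC1, chr10:98030702-98030731, minus strand: attggccgcgccGGCGCCccccaccccggg
The match in ALPL begins 174 bases before the RefSeq start site, the matches at the RUNX2 starts 191 and 80 bases before, and the match in CRTAC1 98 bases before.

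These matches are a description of letters and not of binding. GGCGCC was found in the 250 bases before the start in 16.4% of 34786 distinct human promoters, TGTGGT in 11%, and the SMAD box CAGAC, also searched on both strands, in 38.0%. None of the matches overlaps another of these motifs. A second RUNX site lies 87 bases before the distal RUNX2 start, in an exon of GENCODE 29. One other ALPL start has a SMAD box 203 bases before it, and the remaining ALPL window has none of the 3 motifs. The single windows of RUNX1 and MSX1 hold none of them either, and DLX5 and TNFRSF11B had no window to search. The shares above are for 1 motif in 1 window, while ALPL had 3 windows and RUNX2 had 2, each searched for all 3 motifs. Whether matches go with a change in RNA was not tested. The matches 80 bases before the second RUNX2 start and 98 bases before the CRTAC1 start lie in such exons too, so other transcripts of these genes start further upstream.

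Genes with a mean of at least 0.1 RPKM over the 6 libraries were tested on the log2(RPKM + 0.1) scale with limma, a linear model with a moderated variance. Of 21540 genes tested, 2604 (12.1%) had a Benjamini-Hochberg adjusted p under 0.05, 824 (3.83%) higher and 1780 (8.26%) lower with GDF5. With libraries scaled by the median of ratios, 1343 were higher and 1024 lower. Without a single library the count was 2262 (GDF5 replicate 1), 1131 (GDF5 replicate 2) and 1148 (GDF5 replicate 3). It was 1386 (control replicate 1), 1494 (control replicate 2) and 1558 (control replicate 3) without a control library. Of the 7 genes with a row, 5 passed the filter on low values, and DLX5 and TNFRSF11B did not. Leaving out CRTAC1, 4 were tested. RUNX2 was called higher, and RUNX1, MSX1 and ALPL were not called. In a bulk sample fewer cells making an RNA and less RNA per cell cannot be told apart.

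**Figure D1:**
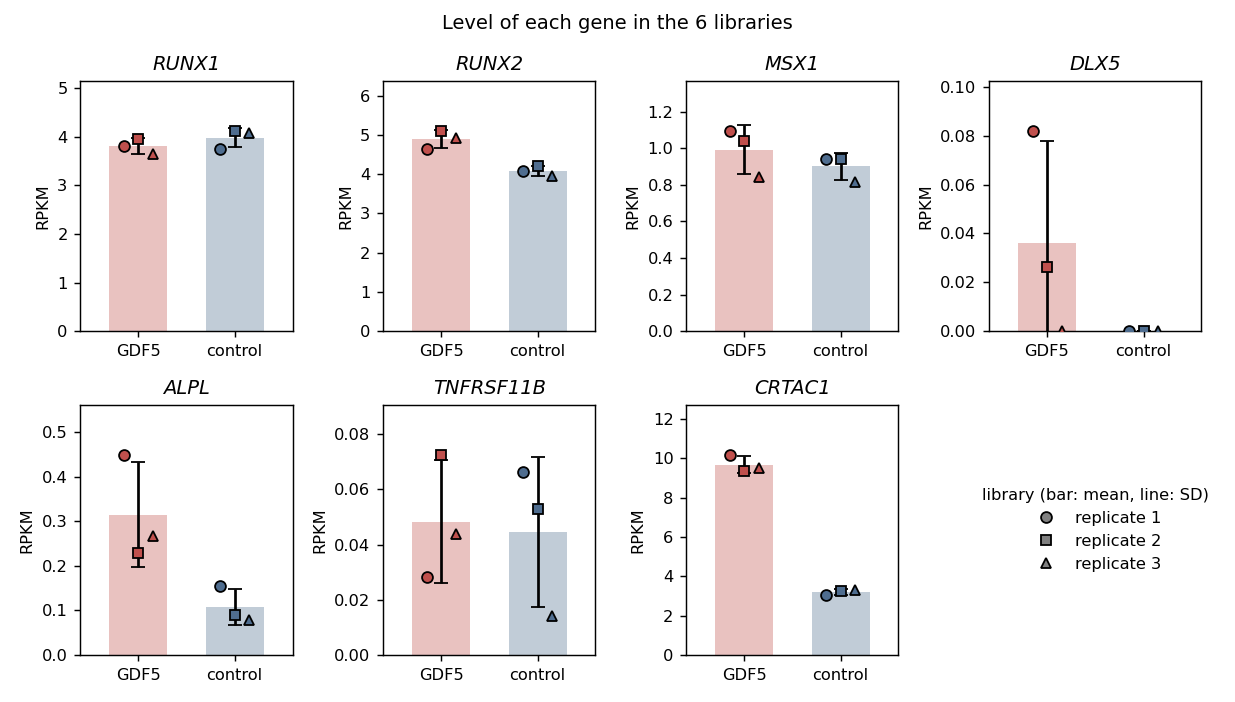
RPKM of 7 genes (linear axes that start at 0 and differ between panels) in 3 GDF5 and 3 control libraries of HK-2 cells; bars are means, lines SD (cut at 0 for DLX5), and symbols single libraries. The GDF5 libraries of RUNX2, ALPL and CRTAC1 all lie above the control libraries, DLX5 is at 0 in every control library, and the groups overlap for RUNX1, MSX1 and TNFRSF11B.

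RUNX2 (ENSG00000124813, GRCh38 chromosome 6, 45328157 to 45664349, plus strand), the factor that drives osteoblast differentiation, rose by a small amount. It was at 4.64, 5.10 and 4.91 RPKM in GDF5 replicates 1 to 3 and at 4.09, 4.21 and 3.96 RPKM in control replicates 1 to 3. The groups did not overlap, and GDF5 replicate 1 was the closest of its group to the control libraries. The log2 change was 0.25 with a standard error of 0.05 and a 95% interval of 0.13 to 0.37 (limma adjusted p = 0.0268), and the ratio of means was 1.20. From 1554 to 2183 reads per library lay behind these values, so counting error was small.

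Without GDF5 replicate 1 the RUNX2 call held, at a log2 change of 0.29 (limma adjusted p = 0.0276). The call ended without any other single library. Its limma adjusted p was 0.0967 without GDF5 replicate 2 and 0.0949 without GDF5 replicate 3. It was 0.0826, 0.0576 and 0.0776 without control replicates 1, 2 and 3. Log2 changes in these fits were 0.22 to 0.27, and calls over all genes fell too, from 2604 to counts of 1131 to 1558. In the authors' deposited table RUNX2 had a log2 fold change of 0.32 and an adjusted p of 1.47e-05, and with limma-voom on recovered reads the adjusted p was 0.0023.

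RUNX1 (ENSG00000159216, chromosome 21, 34787801 to 36004667, minus strand), known for blood formation and also used by early cartilage cells, was close in level to RUNX2 in control cells. It was at 3.81, 3.96 and 3.64 RPKM in GDF5 libraries and at 3.75, 4.12 and 4.07 RPKM in control libraries. The groups overlapped, and the log2 change of -0.06 had a 95% interval of -0.20 to 0.08 (limma adjusted p = 0.545). The call missed the threshold at a depth of 2707 to 3548 reads per library, and the interval leaves room for a fall of 0.20 or a rise of 0.08. Whether RUNX2 and RUNX1 changed differently was not tested.

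MSX1 (ENSG00000163132, chromosome 4, 4859666 to 4863936, plus strand), a homeobox repressor of tooth and skull development, was at 1.09, 1.04 and 0.843 RPKM in GDF5 libraries and at 0.943, 0.941 and 0.816 RPKM in control libraries. GDF5 replicate 3 lay below control replicates 1 and 2, so the groups overlapped. The log2 change was 0.12 with a 95% interval of -0.19 to 0.43 (limma adjusted p = 0.606), on 90 to 130 reads per library. In the authors' deposited table its adjusted p was 0.906.

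DLX5 (ENSG00000105880, chromosome 7, 97020392 to 97024950, minus strand), a homeobox activator of osteoblast genes, was at or near the limit of detection. It was at 0.0819, 0.0261 and 0 RPKM in GDF5 replicates 1 to 3, from 8, 2 and 0 reads, and at 0 in all 3 control libraries. A count of 0 allows up to 3 reads if reads are independent, which corresponds to 0.0359, 0.0381 and 0.0307 RPKM in control replicates 1 to 3. If mates were counted separately, the level allowed is higher. Only GDF5 replicate 1, the library that stood apart, exceeded that level, so no difference was detectable at this depth. The authors' deposited table gave an adjusted p of 0.423.

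The level of ALPL (ENSG00000162551, chromosome 1, 21509372 to 21578412, plus strand), whose product is the tissue-nonspecific alkaline phosphatase that cleaves the mineralization inhibitor pyrophosphate, was low in both groups. It was at 0.449, 0.229 and 0.266 RPKM in GDF5 libraries and at 0.154, 0.0893 and 0.0779 RPKM in control libraries. Every GDF5 library lay above every control library, and GDF5 replicate 1 was the highest. From 148 reads in the GDF5 libraries together and 47 in the control libraries together, the ratio of mean RPKM was 2.94. The log2 change was 0.98 with a standard error of 0.30 and a 95% interval of 0.27 to 1.70, and it was not called (limma adjusted p = 0.0854).

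The size of the ALPL difference depended on the pseudocount, and its call on the test. With a pseudocount of 0.5 the log2 change was 0.42 and with 1 it was 0.25, neither called (limma adjusted p = 0.0967 and 0.103). With limma-voom on recovered reads the log2 change was 1.57 (adjusted p = 0.0103), and the authors' deposited table gave 1.63 with an adjusted p of 0.00901. Among all genes, 5.52% were called higher by limma-voom and 4.91% in the authors' deposited table. Without GDF5 replicate 1 the log2 change was 0.76 (limma adjusted p = 0.191).

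TNFRSF11B (ENSG00000164761, chromosome 8, 118923557 to 118952200, minus strand) encodes osteoprotegerin, the decoy receptor that keeps RANK ligand from its receptor. It was at 0.0284, 0.0726 and 0.0440 RPKM in GDF5 libraries and at 0.0664, 0.0530 and 0.0142 RPKM in control libraries, from 2 to 8 reads per library. The groups overlapped, and the authors' deposited table gave an adjusted p of 0.971. A difference was not detectable at this depth.

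CRTAC1 (ENSG00000095713, chromosome 10, 97865000 to 98030828, minus strand), cartilage acidic protein, is secreted by chondrocytes of deep cartilage. It was at 10.2, 9.35 and 9.53 RPKM in GDF5 libraries and at 3.03, 3.28 and 3.29 RPKM in control libraries. The 3 GDF5 libraries lay close together and far above the control libraries, at a ratio of means of 3.03 and a log2 change of 1.57. These values chose the gene. Its exons share 125 bases, 3.52% of their length, with exons of GOLGA7B on the other strand, and no source used here says whether counting was by strand.

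The order of levels differed between the groups only in the place of CRTAC1, which was chosen for its rise. In GDF5 libraries it was CRTAC1, RUNX2, RUNX1, MSX1, ALPL, TNFRSF11B and DLX5, and of neighbours in that order only the ranges of TNFRSF11B and DLX5 overlapped. In control libraries it was RUNX2, RUNX1, CRTAC1, MSX1, ALPL, TNFRSF11B and DLX5, and RUNX2 and RUNX1 overlapped. In control replicate 3 the 0 reads of DLX5 allow up to 0.0307 RPKM, above TNFRSF11B at 0.0142 RPKM. The order of TNFRSF11B and DLX5 in control libraries was thus not resolved. In control libraries 64.5% of tested genes had a lower level than RUNX2, 64.0% a lower level than RUNX1, 59.9% a lower level than CRTAC1, 39.9% a lower level than MSX1 and 3.26% a lower level than ALPL. The GDF5 libraries lay wholly above the control libraries in 10.2% of tested genes, the level against which the separation of RUNX2 and ALPL can be read.

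Genes with the most similar profile were sought by the smallest Euclidean distance over the 6 libraries, on log2(RPKM + 0.1) minus the control mean, among 11791 named genes of at least 1 RPKM. Closest to CRTAC1 were INHBA, the activin A subunit, at a distance of 0.45, and ANKRD1, a cardiac ankyrin repeat gene, at 0.48. INHBA averaged 23.0 ± 0.530 RPKM in GDF5 libraries and 9.13 ± 0.239 RPKM in control libraries (SD, n = 3 each). Closest to RUNX2 were TMEM50A at 0.035 and ANLN, an actin-binding gene of cell division, at 0.052. ANLN averaged 49.1 ± 2.21 RPKM in GDF5 libraries and 40.4 ± 0.878 RPKM in control libraries (SD, n = 3 each). Closest to RUNX1 were ALG2 at 0.042 and MRPS33 at 0.045, and neither was called (limma adjusted p = 0.513 and 0.413). The distances of CRTAC1 to its neighbours were larger than those of RUNX2 and RUNX1. Since CRTAC1 was chosen for its rise, that difference is no trait particular to the gene.

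Other genes of these pathways were read from 7 lists by role, of which 73 members were tested and 15 called, 10 higher and 5 lower. FOXC2 and SMPD3 averaged at least 0.1 RPKM in 1 group only and so passed the filter through that group. Without them 14 of 71 were called, 9 higher and 5 lower (19.7% called, against 12.1% of all tested genes). FOXC2 and SMPD3 are left out of the counts of their lists. With median-of-ratios scaling 13 of the 73 were higher and 3 lower, against 1343 and 1024 of the 21540 tested genes. With limma-voom and that scaling 24 and 5 of the 73 were, against 1954 and 1612 of the 21540. The 73 include FOXC2 and SMPD3 in these counts. Among partners and corepressors of RUNX proteins 1 of 14 tested genes rose and 2 fell (7.14% and 14.3%, against 3.83% and 8.26% of all tested genes), with a median log2 change of 0.09 against -0.07 over all tested genes. With median-of-ratios scaling 2 were higher and 1 lower. TLE1, a Groucho corepressor that RUNX proteins recruit, fell to 30.1 ± 0.784 RPKM in GDF5 libraries, against 39.7 ± 2.07 RPKM in control libraries (SD, n = 3 each), a log2 change of -0.40 (limma adjusted p = 0.0028). HDAC3, a histone deacetylase, fell by 0.18 on the log2 scale (limma adjusted p = 0.0206), and TWIST1, which inhibits RUNX2 protein, rose by 0.32 (limma adjusted p = 0.0358). CBFB, the shared partner that RUNX proteins need to bind DNA well, averaged 14.9 RPKM in GDF5 libraries and 15.9 RPKM in control libraries and was not called. HDAC3 lost its call once libraries were scaled by the median of ratios (limma adjusted p = 0.0701) and without GDF5 replicates 2 or 3 or control replicates 1 or 3 (0.0517 to 0.0797). The TWIST1 call ended without any library but GDF5 replicate 1 (limma adjusted p = 0.0898 to 0.112), with no filter on low values (0.0559) and with limma-voom (0.0800).

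Of 6 tested relatives of MSX and DLX genes 1 rose and none fell (16.7% higher, against 3.83% of all tested genes), with a median log2 change of 0.34 against -0.07 over all tested genes. DLX1 was at 1.59, 1.63 and 1.56 RPKM in GDF5 libraries and at 1.16, 1.12 and 1.22 RPKM in control libraries, without overlap, a log2 change of 0.42 (limma adjusted p = 0.0178). DLX6, which lies beside DLX5 in the genome, averaged 0.645 RPKM in GDF5 libraries and 0.431 RPKM in control libraries and was not called (limma adjusted p = 0.0780). DLX2 averaged 0.284 RPKM in GDF5 libraries and 0.122 RPKM in control libraries and was not called (limma adjusted p = 0.127). DLX4 leaned down, at 0.203 RPKM in GDF5 libraries and 0.258 RPKM in control libraries. Its log2 change was -0.24, and it was not called (limma adjusted p = 0.559). The DLX1 call ended without GDF5 replicates 2 or 3 or control replicates 1 or 2 (limma adjusted p = 0.0557 to 0.0782).

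Among other transcription factors of osteoblasts 1 of 9 counted genes rose and none fell (11.1% higher, against 3.83% of all tested genes), with a median log2 change of 0.15. FOXC2, a forkhead factor of skeletal and vascular mesoderm, was at 0.375, 0.228 and 0.299 RPKM in GDF5 libraries and at 0.0431, 0.0306 and 0.0308 RPKM in control libraries. The reads behind it were 61, 29 and 47 in GDF5 libraries and 6, 4 and 5 in control libraries, and the gene passed the filter through its GDF5 libraries. The ratio of means was 8.63. The log2 change depended on the pseudocount, at 1.56 with 0.1, 0.58 with 0.5 and 0.33 with 1, and it was 3.01 with limma-voom. These values are a description, and no test of FOXC2 is given. ATF4, a factor of amino acid supply that osteoblasts also need, rose by 0.20 on the log2 scale (limma adjusted p = 0.0160), and its call ended without GDF5 replicates 2 or 3 or control replicate 2 (0.0519 to 0.0727). SP7, the osteoblast factor downstream of RUNX2, averaged 0 RPKM in GDF5 libraries and 0.0035 RPKM in control libraries.

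Of 22 bone matrix and osteocyte genes with a row, 12 lay below the filter and 10 were tested, of which 1 rose and none fell (10% higher, against 3.83% of all tested genes), with a median log2 change of -0.01. COL1A1, the main collagen chain of bone, averaged 3.83 ± 0.152 RPKM in GDF5 libraries and 3.07 ± 0.232 RPKM in control libraries (SD, n = 3 each), a log2 change of 0.31 (limma adjusted p = 0.0350). That call ended when any 1 library was left out (limma adjusted p = 0.0568 to 0.120) and with no filter on low values (0.0549). SPP1, osteopontin, was abundant at 407.5 RPKM in GDF5 libraries and 433.6 RPKM in control libraries and was not called (limma adjusted p = 0.0906). SPARC, osteonectin, averaged 249.7 RPKM over the 6 libraries and was not called, with a log2 change of -0.0037 (limma adjusted p = 0.954).

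Genes of phosphate, pyrophosphate and mineralization held 3 rises and 1 fall among 11 counted genes (27.3% and 9.09%, against 3.83% and 8.26% of all tested genes), with a median log2 change of -0.01. NT5E, the CD73 enzyme that releases phosphate and adenosine from AMP, was at 4.22, 4.24 and 4.57 RPKM in GDF5 libraries and at 2.46, 2.30 and 2.56 RPKM in control libraries. The log2 change was 0.81 (limma adjusted p = 0.00084), and the call held in every fit that left out a library. The phosphate importer gene SLC20A1 rose by 0.26 and ANXA6, an annexin of matrix vesicles, by 0.22 on the log2 scale (limma adjusted p = 0.0050 and 0.0089). SLC20A2, a related importer, averaged 2.82 ± 0.0897 RPKM in GDF5 libraries and 3.42 ± 0.0578 RPKM in control libraries (SD, n = 3 each), a fall with a log2 change of -0.27 (limma adjusted p = 0.0198). The SLC20A2 call ended without any library but GDF5 replicate 1 (limma adjusted p = 0.0530 to 0.0770). The pyrophosphate source ENPP1 averaged 2.14 RPKM in both groups and was not called (limma adjusted p = 0.978).

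Among ligands of osteoprotegerin and genes of the RANK axis none of 8 tested genes rose and 1 fell (12.5% called, close to the 12.1% of all tested genes), with a median log2 change of -0.03. TNFSF10, the death ligand TRAIL that osteoprotegerin can also bind, fell to 133.3, 136.7 and 134.3 RPKM in GDF5 libraries, against 233.7, 223.1 and 221.4 RPKM in control libraries. The groups were far apart relative to their spread, with a log2 change of -0.75 and a standard error of 0.03 (limma adjusted p = 7.54e-05), and the call held in every fit that left out a library. TNFRSF11A, the receptor RANK, averaged 0.275 RPKM in GDF5 libraries and 0.276 RPKM in control libraries. TNFSF11, which encodes RANK ligand, was not analysed here.

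Of 30 chondrocyte genes with a row 13 were tested, 2 rose and 1 fell (15.4% and 7.69%, against 3.83% and 8.26% of all tested genes), with a median log2 change of -0.08 against -0.07 over all tested genes. COL11A1, a fibril collagen chain of cartilage, averaged 7.11 ± 0.189 RPKM in GDF5 libraries and 5.65 ± 0.0337 RPKM in control libraries (SD, n = 3 each), a log2 change of 0.33 (limma adjusted p = 0.0034). PTHLH, the peptide that holds back chondrocyte maturation, was at 1.36, 1.54 and 1.68 RPKM in GDF5 libraries and at 1.08, 0.866 and 0.813 RPKM in control libraries, a log2 change of 0.68 (limma adjusted p = 0.0226). CHAD, chondroadherin, fell by 0.72 on the log2 scale (limma adjusted p = 0.0400). SOX9, the factor chondrocytes require, averaged 2.24 RPKM in GDF5 libraries and 2.50 RPKM in control libraries and was not called (limma adjusted p = 0.427). The PTHLH call ended without GDF5 replicates 2 or 3 or control replicates 2 or 3 (limma adjusted p = 0.0682 to 0.0874), and the CHAD call under scaling by the median of ratios (0.0554), with no filter on low values (0.0758) and in each fit that left out a library other than control replicate 3 (0.0917 to 0.128).

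**Figure D2:**
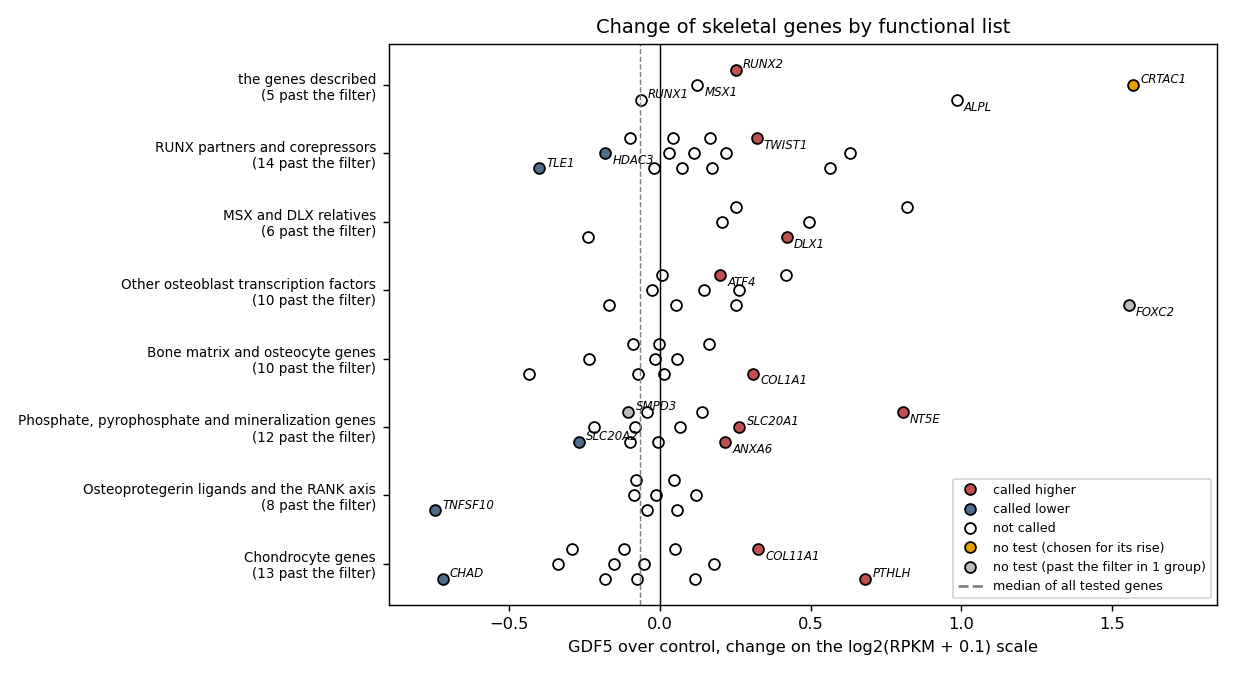
Change of each gene past the filter on the log2(RPKM + 0.1) scale, GDF5 over control, by role; red and blue points were called higher and lower at a limma adjusted p under 0.05, the orange point is CRTAC1, grey points are FOXC2 and SMPD3, which passed the filter through 1 group, and the dashed line is the median of all tested genes at -0.07. On this scale CRTAC1 at 1.57 and FOXC2 at 1.56 lie farthest to the right, and TNFSF10 at -0.75 farthest to the left.

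**Figure D3:**
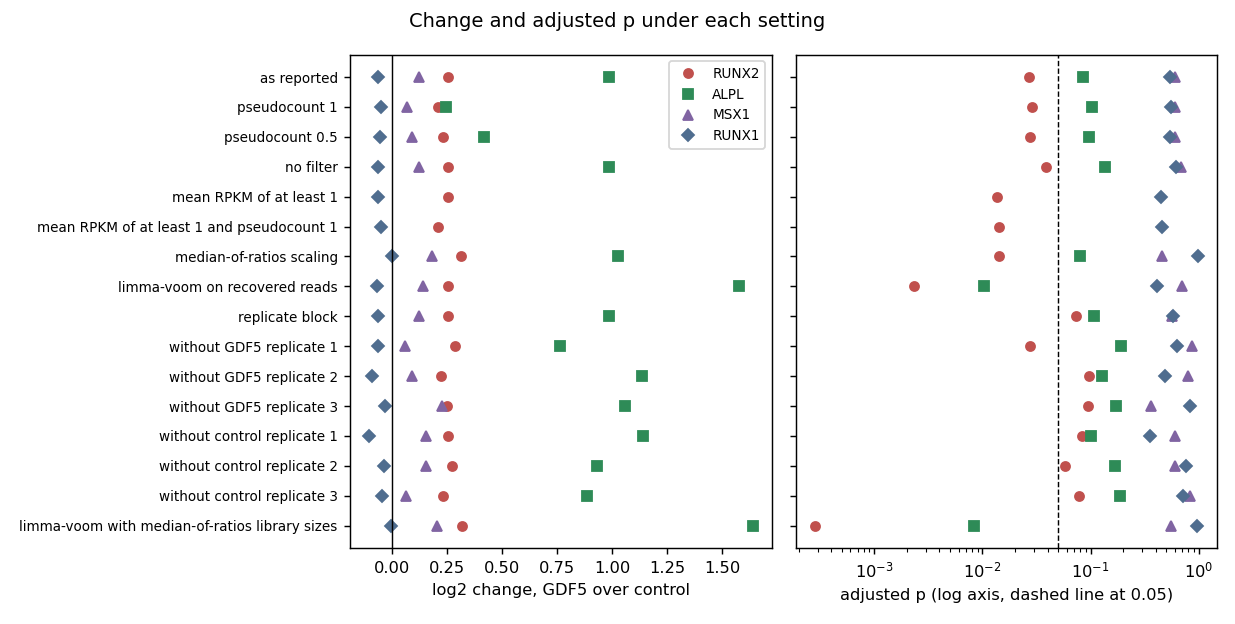
Log2 change (left) and adjusted p (right, log axis, dashed line at 0.05) of RUNX2, ALPL, MSX1 and RUNX1 under each processing setting. RUNX2 misses the threshold in 5 of the 6 fits that leave out a library and with the replicate block, ALPL passes it in the limma-voom fits, and MSX1 and RUNX1 stay above it throughout.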

How the data were processed

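Total RNA was taken from HK-2 cells with TRIzol, and the 6 Illumina libraries keep strand, per the labels' protocols. HISAT2, DESeq2 and the GRCh38 build are named in the submitters' processing notes; the sources used here give no versions, read counter, annotation release or filters. The header names no unit for the library columns, and the steps of the deposited values showed the authors' RPKM. The authors' mean signal per group, log2 fold change (GDF5 over control), p-value and adjusted p-value were deposited beside them, per the file headers, and each sentence that uses one names the authors' deposited table. The 2 files were identical, and 1 was read.

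Reads were recovered from the RPKM steps and the group means: each of the 64562 values that came to fewer than 20 reads was whole to within 0.1. Even numbers made up 63.6%, so mates may have been counted separately. Exon lengths implied by the values equalled those of GENCODE 29 within 1 base for RUNX1, RUNX2, MSX1 and CRTAC1 and differed for DLX5, ALPL and TNFRSF11B, and coordinates are from GENCODE 29 on GRCh38. Floors of 3 reads cover counting error only, since reads were not counted by molecule, and they are too low if mates were counted separately.

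Values were compared as log2(RPKM + 0.1) in 21540 genes with a mean of at least 0.1 RPKM, in limma 3.58.1 (R 4.3.3), with a mean-variance trend, without a block and two-sided. A call is a Benjamini-Hochberg adjusted p below 0.05. This scale understates the change of low genes. The filter and the pseudocount were set low because several of the genes lie under 1 RPKM. The genes, the lists and the tests were chosen with earlier results of these data known, so they are no independent support. Genes named besides the 8 were up to 4 called genes per list by smallest adjusted p (with none called, the 2 of highest level), the 2 nearest profiles of each gene of at least 1 RPKM, and ID1 and SMAD7; uncalled list members were added after their values were seen. Alternatives were other pseudocounts and filters, median-of-ratios scaling, limma-voom on the recovered reads, a replicate block, a stricter threshold and leaving out each library.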

Additional observations from a re-analysis of the deposited data

How the results depend on the processing

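Counts of calls moved between settings, and the balance of higher and lower calls moved with the scaling. Of 21540 genes 2604 were called as reported, 3952 with limma-voom on recovered reads and 3566 with limma-voom and median-of-ratios library sizes. At an adjusted p under 0.01 the count was 879, and without a single library it was 1131 to 2262. Of 73 tested members of the 7 lists 15 were called as reported, 28 with limma-voom, 29 with limma-voom and median-of-ratios library sizes (added after seeing the data), 6 at an adjusted p under 0.01, 14 without the 2 that passed the filter through 1 group (also added after seeing the data), and 6 to 17 without a single library. Median-of-ratios scaling raised the share of calls that were higher to 56.7%, against 31.6% as reported. The log2 change of ALG2 was 0.0088 with that scaling and 0.0075 with limma-voom and that scaling, against -0.05 as reported; no other gene followed across these alternatives changed sign. The log2 change of CRTAC1 was 1.35 with a pseudocount of 1, 1.46 with 0.5 and 1.66 with limma-voom and median-of-ratios library sizes. Same-numbered libraries did not deviate together (correlations of -0.013, 0.013 and 0.0026 over genes). No label says whether they pair, and with 3 libraries per group these values cannot decide it. With a replicate block 1081 genes and 6 list members were called, and the adjusted p of RUNX2 was 0.0740. Depth limits DLX5 and TNFRSF11B, with at most 8 reads in any library. The cause of these differences was not tested.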
